A study of Mus musculus with 16 samples.

Results

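The 39 genes described here encode the enzymes that build cholesterol, the proteins that switch those enzymes on and off, the receptors and transporters that carry cholesterol out of a cell, and the main enzymes that make and desaturate fatty acids. The list was put together with earlier results of these tumors known, and its genes were chosen by their counts, since a listed gene stayed when it had at least 10 counts over the 16 tumors. All 39 listed genes passed that minimum, out of 22298 genes counted, of which 16817 passed it. The smallest sum of a member was 124 counts, for Scd4, and the next was 1652 counts, for Stard4, so no member lay close to the minimum. The members comprised 19 sterol synthesis enzymes, 6 genes of SREBP control and sterol transport, 5 genes of the LXR receptors and cholesterol efflux, and 9 genes of fatty acid synthesis.

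All tumors came from wild-type mice of the 615 line, sex-matched and 6 weeks old, that had received 500000 MFC cells into the abdominal cavity. MFC is a mouse forestomach carcinoma line that grows in this strain and seeds the peritoneum, as gastric cancer does in patients. The vehicle group (8 tumors) was given PBS, and the IL-33 treatment group (8 tumors) was given IL-33, a cytokine of the interleukin-1 family, at 20 μg/kg by intraperitoneal injection every other day. Poly(A) RNA of whole tumor tissue was sequenced to compare these groups. No label ties a tumor to a mouse. The methods gave fewer mice per group for the abdominal model than tumors sequenced, while a survival experiment of that model had more. The p-values below therefore measure the spread between tumors, some of which may share an animal. In whole tissue, fewer cells of a type and less RNA per cell cannot be told apart.

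Cholesterol is built from acetyl-CoA through mevalonate, farnesyl diphosphate, squalene and lanosterol. When the sterol content of the endoplasmic reticulum is low, the escort protein SCAP carries the membrane-bound factors SREBP1 and SREBP2 to the Golgi, where they are cleaved and released to the nucleus. SREBP2 mainly drives the genes of sterol synthesis and SREBP1 those of fatty acid synthesis, while the INSIG proteins hold SCAP back when sterols are plentiful. The liver X receptors, or LXRs, respond to oxidized sterols and drive the efflux transporters and also Srebf1, so sterol synthesis and sterol efflux are usually regulated in opposite directions.

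The promoters of 5 members are printed because sterol synthesis genes are controlled through short motifs next to the transcript start. RefSeq windows from 250 bases before to 50 bases after the start were matched for 31 of the 39 members. The 8 members without an entry were Fdps, Fdft1, Sqle, Stard4, Abcg1, Scd1, Scd2 and Fads1. Each line below gives the 150 bases before the start, read 5′ to 3′ in the direction of transcription (build GRCm38.p6, RefSeq). Capitals mark CCAAT, the box bound by the NF-Y factor, or its reverse complement ATTGG, and, in Hmgcs1, TCACCCCAC, a match to the sterol regulatory element core TCACNCCAC.
Hmgcs1: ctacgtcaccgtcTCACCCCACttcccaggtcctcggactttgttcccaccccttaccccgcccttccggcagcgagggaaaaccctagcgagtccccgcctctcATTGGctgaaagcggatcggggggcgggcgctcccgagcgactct
Mvk: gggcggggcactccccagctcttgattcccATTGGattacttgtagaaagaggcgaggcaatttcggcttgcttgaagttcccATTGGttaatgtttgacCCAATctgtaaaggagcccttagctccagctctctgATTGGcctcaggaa
Mvd: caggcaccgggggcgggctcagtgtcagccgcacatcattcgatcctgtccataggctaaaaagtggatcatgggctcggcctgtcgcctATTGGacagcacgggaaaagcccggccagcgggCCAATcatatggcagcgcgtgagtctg
Acat2: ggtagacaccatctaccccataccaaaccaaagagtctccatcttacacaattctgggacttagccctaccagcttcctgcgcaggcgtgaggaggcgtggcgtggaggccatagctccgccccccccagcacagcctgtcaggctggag
Fasn: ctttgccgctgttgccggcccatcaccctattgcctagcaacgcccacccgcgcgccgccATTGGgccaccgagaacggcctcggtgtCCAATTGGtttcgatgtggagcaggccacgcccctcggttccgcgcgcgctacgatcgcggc
The Hmgcs1 window lay on the plus strand at chr13:119690201-119690350 and the Mvk window on the plus strand at chr5:114444119-114444268. The Mvd window lay on the minus strand at chr8:122443423-122443572, the Acat2 window on the minus strand at chr17:12960726-12960875 and the Fasn window on the minus strand at chr11:120824548-120824697. In GENCODE M21 the Hmgcs1, Mvk and Fasn windows held no annotated gene, the Mvd window lay in the span of Gm20388 but in none of its exons, and 22 bases of the Acat2 window belonged to an Acat2 exon.

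Searched on both strands over the windows of 250 bases before to 50 bases after the start, CCAAT was present in 15 of the 16 matched sterol synthesis enzymes, and Acat2 was the exception. It was present in 37.4% of all 32851 RefSeq windows of that length. It was found in 4 of 5 matched genes of SREBP control and transport, in 1 of 4 of LXR and efflux and in 2 of 6 of fatty acid synthesis. A gene may have several windows, so counts of genes and the share of windows are unlike measures. By window, CCAAT was present in 15 of 19 of the sterol enzymes and 5 of 10 of SREBP control and transport. For LXR and efflux it was 1 of 5 windows, and for fatty acid synthesis 2 of 6. Mvk held 5 matches, the most of any enzyme, and in Fasn a match on each strand overlapped in CCAATTGG. The sterol regulatory element core TCACNCCAC, present in 1.24% of all windows, was found in Hmgcs1 alone among the 31 matched members, 137 bases before the start. A match describes the letters in the window and is not a measured binding site. Sites that depart from the searched letters or lie outside the windows were not sought. The lack of a match is therefore not a measured absence.

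**Figure D1:**
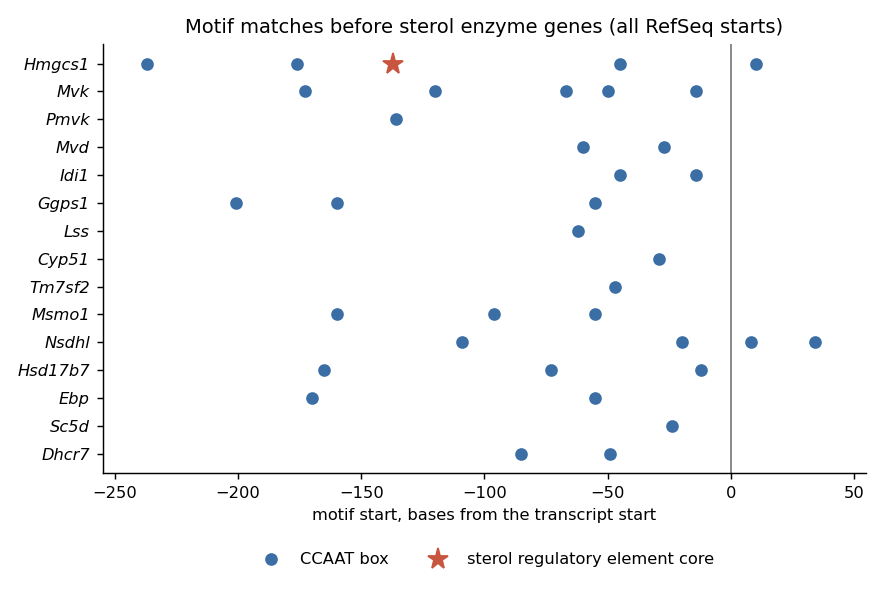
Positions of CCAAT (circles) and TCACNCCAC (star) matches, in bases from the RefSeq transcript start, for the 15 sterol synthesis enzymes that held a match. Each row is 1 gene, the vertical line marks the start, and most matches lie before it.

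The deposited values were raw counts of reads per gene, and the total lay between 14139268 and 24290794 counts per vehicle tumor and between 16569613 and 24288893 counts per IL-33 tumor. Levels are given as CPM, the count scaled to a common library total, and folds come from edgeR with TMM scaling, which corrects for a few genes taking much of a library. The scaling factor was lowest in vehicle replicate 4 (0.6399) and highest in IL-33 replicate 7 (1.242), with the other 14 tumors between 0.8951 and 1.097. Ranges and the order of tumors are given on CPM without TMM scaling, which places vehicle replicate 4 lower than the scale of the folds does, and the order on TMM-scaled CPM is added where it differs. IL-33 replicate 7 stood apart in tissue content. Its 10 ovary and steroidogenic markers summed to 1700 CPM against at most 7.97 CPM in any other tumor, its 7 adipose markers to 2720 CPM against at most 268 CPM, its 6 uterus and oviduct markers to 1230 CPM against at most 7.15 CPM, and its 5 proliferation markers to 203 CPM against at least 431 CPM. The 5 epithelial markers, which a carcinoma expresses, summed to between 236 and 1550 CPM over the tumors. Of the 7 liver markers 3 were lower in IL-33 at an unadjusted p under 0.05 (edgeR) and 0 higher, against 1.17% and 9.99% of all genes tested. The liver markers summed to 0.686 to 39.6 CPM in vehicle tumors (median 17.0). Their sum was 376 CPM in IL-33 replicate 7 and 0.724 to 23.1 CPM in the other 7 IL-33 tumors, with a median of 1.56 CPM over the 8. Liver makes both sterols and fatty acids. Vehicle replicates 1 to 8 had 1.38, 33.5, 15.1, 19.0, 39.6, 35.8, 0.686 and 1.32 CPM of liver markers. In the same order, 8, 18, 0, 12, 7, 16, 10 and 5 of the 19 sterol enzymes lay below the vehicle median on CPM. On TMM-scaled CPM these counts were 8, 18, 0, 12, 7, 14, 11 and 6. IL-33 replicates 1, 2 and 3 had 0.727, 0.724 and 8.2 CPM. IL-33 replicates 4 to 8, low in most sterol enzymes, had 1.69, 1.43, 23.1, 376 and 1.15 CPM. The part of liver tissue in the sterol and fatty acid values was not tested. Folds are also given without IL-33 replicate 7 where that tumor decides them.

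Most sterol synthesis enzymes had lower levels in the IL-33 treatment group, but none passed the test after adjustment over all genes. Of the 39 members, 17 were lower at an unadjusted p under 0.05, 11 of them sterol synthesis enzymes, against 1.17% of all genes tested that were lower at that threshold (196 of 16817). A single member, the desaturase Fads2, was higher at that threshold, against 9.99% of all genes (1680 of 16817). An exact permutation test on CPM without TMM scaling, described below, did not call all of these members. There Acat2, Nsdhl, Hsd17b7, Sc5d, Srebf2, Acaca, Fasn, Scd1 and Elovl6 had p above 0.05, as did Fads2. After Benjamini-Hochberg adjustment of the edgeR quasi-likelihood p-values across all 16817 genes, 0 of 39 members and 0.0% of all genes were under 0.05, and the smallest adjusted p was 0.418. Over all genes, 1876 had an unadjusted p under 0.05 in edgeR. DESeq2 called 0 genes after adjustment and 691 at an unadjusted p under 0.05.

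Without IL-33 replicate 7, 15 of 39 members were lower at an unadjusted p under 0.05, against 2.29% of the 15803 genes tested, and 0 members were higher, against 1.83%. Without vehicle replicate 3, the tumor with the highest levels of most sterol enzymes, 9 members were lower, against 1.32% of the 16765 genes tested, and 0 higher, against 8.74%. No member, and 0.0% of all 16817 genes, had groups that did not overlap, on CPM and on TMM-scaled CPM alike. The median log2 fold change was −0.52 over the 39 members and 0.0558 over all genes, and without IL-33 replicate 7 these were −0.44 and −0.0115.

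**Figure D2:**
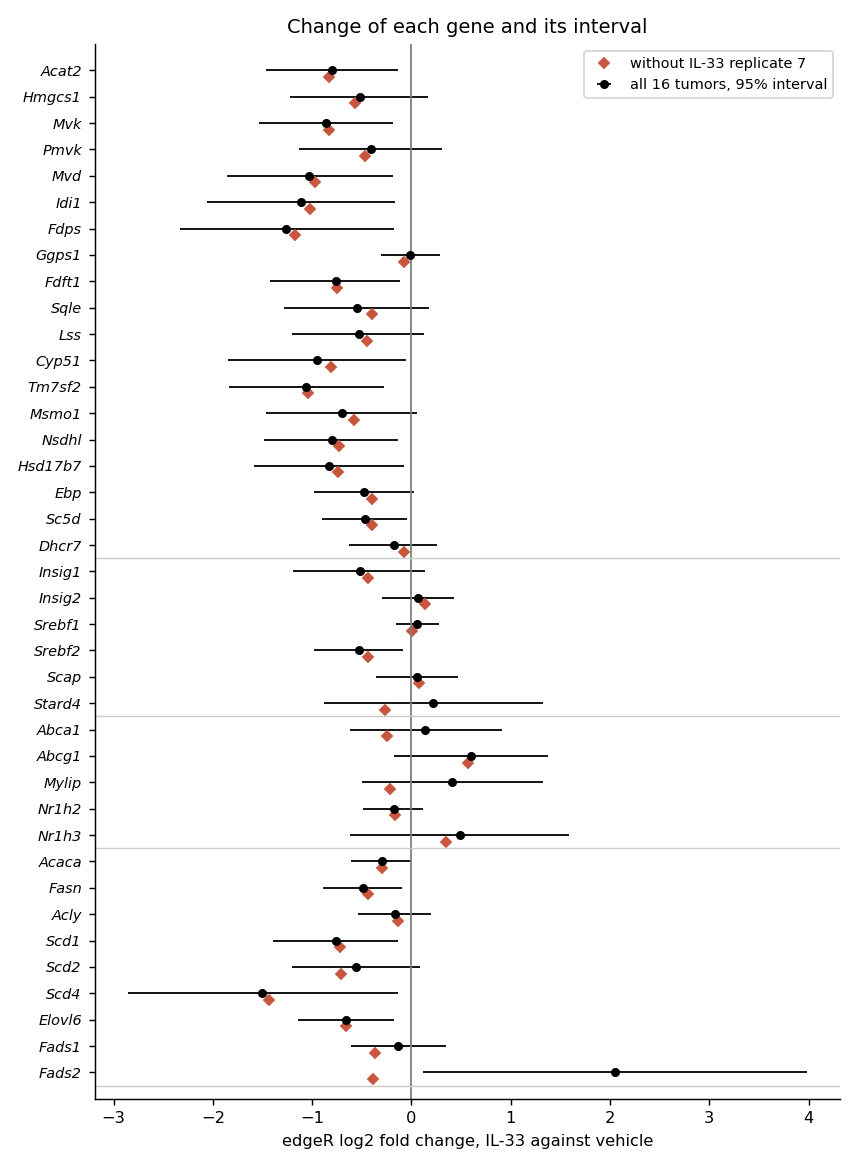
edgeR log2 fold change of each member, IL-33 against vehicle (x axis), with all 16 tumors (black circle, line for the 95% interval) and without IL-33 replicate 7 (red diamond). Gray lines separate the 4 roles, the 19 sterol enzymes at the top lie between −1.26 and −0.01 with all tumors, and Fads2 moves from 2.05 to −0.39.

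The 19 sterol synthesis enzymes had a median log2 fold change of −0.76, with values from −1.26 for Fdps to −0.01 for Ggps1. All 19 values were below 0, also without IL-33 replicate 7 (median −0.73), and only that of Ggps1 turned above 0 under another scaling or filter (0.0037 with upper-quartile scaling and 0.0034 with edgeR's expression filter). Of these, 11 were lower at the unadjusted threshold, against 1.17% of all genes tested: Acat2, Mvk, Mvd, Idi1, Fdps, Fdft1, Cyp51, Tm7sf2, Nsdhl, Hsd17b7 and Sc5d.

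The early steps make and phosphorylate mevalonate. Acat2, the cytosolic acetyl-CoA acetyltransferase that joins the first acetyl units, was measured at 20.9 to 96.2 CPM in vehicle tumors (median 54.4) and at 13.7 to 57.8 CPM in IL-33 tumors (median 25.7), and IL-33 replicates 4, 5, 6 and 8 lay below every vehicle tumor. The fold was −0.80 ± 0.31 on the log2 scale (SE, n = 8 per group, edgeR p = 0.0213, exact permutation p = 0.0573). Of the 50-base stretches of its transcripts, 39.1% also occur in Acat3, so the counts may include reads of that gene. Without vehicle replicate 3 the value was −0.61 and missed the unadjusted threshold. Hmgcs1, the HMG-CoA synthase whose promoter holds the sterol element core, had a log2 fold change of −0.52 ± 0.33 and did not pass the unadjusted threshold (edgeR p = 0.128, exact permutation p = 0.215). Its levels were 26.2 to 144.9 CPM in vehicle tumors and 27.3 to 100.3 CPM in IL-33 tumors, and on this scale every IL-33 tumor lay within the vehicle range. On TMM-scaled CPM, IL-33 replicates 4, 5, 6 and 8 lay below every vehicle tumor.

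Mevalonate kinase, Mvk (ENSMUSG00000041939, chr5:114444269-114460591 in the GENCODE M21 annotation of GRCm38), was measured at 18.8 to 49.7 CPM in vehicle tumors (median 34.5) and at 9.95 to 44.5 CPM in IL-33 tumors (median 18.8). IL-33 replicates 4, 5, 6 and 8 lay below every vehicle tumor (4, 6 and 8 on TMM-scaled CPM), and IL-33 replicate 3 lay near the top of the vehicle range. The mean was 34.3 ± 9.96 CPM in the vehicle group and 21.2 ± 11.3 CPM in the IL-33 treatment group (SD, n = 8 each). With edgeR, the log2 fold change was −0.86 (95% interval −1.53 to −0.19, p = 0.0151, adjusted p = 0.418, exact permutation p = 0.0199). The exact permutation p-values are two-sided and rest on log2(CPM + 0.5) under all assignments of the tumors to the groups. Without vehicle replicate 4 and IL-33 replicate 7 together the log2 fold change was −0.58 and missed the unadjusted threshold. Pmvk, which adds the next phosphate, had a log2 fold change of −0.41 ± 0.34 and did not pass either test (edgeR p = 0.242, exact permutation p = 0.347).

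Mvd, the decarboxylase that yields isopentenyl diphosphate (ENSMUSG00000006517, chr8:122433601-122443422), was measured at 9.99 to 48.0 CPM in vehicle tumors (median 27.1) and at 5.46 to 30.1 CPM in IL-33 tumors (median 11.2). The same IL-33 replicates, 4, 5, 6 and 8, lay below every vehicle tumor, of which replicate 2 was the lowest, and on TMM-scaled CPM 4, 6 and 8 did. The difference was −1.03 on the log2 scale (95% interval −1.86 to −0.19, edgeR p = 0.0192, adjusted p = 0.418), with an exact permutation p of 0.0235. The means were 27.5 ± 10.8 CPM for vehicle and 14.7 ± 9.9 CPM for IL-33 (SD, n = 8 each), and without vehicle replicate 4 and IL-33 replicate 7 together the log2 fold change was −0.82 and missed the threshold.

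The isomerase Idi1 and the farnesyl diphosphate synthase Fdps had the lowest log2 fold changes among the sterol enzymes. Idi1 was measured at 40.9 to 191 CPM in vehicle tumors (median 104.6) and at 15.4 to 133.5 CPM in IL-33 tumors (median 28.6), and its log2 fold change was −1.11 ± 0.45. Fdps was measured at 53.9 to 212 CPM in vehicle tumors (median 145.6) and at 17.5 to 220 CPM in IL-33 tumors (median 39.7), and its log2 fold change was −1.26 ± 0.51. In both genes 5 IL-33 tumors, replicates 4 to 8, lay below every vehicle tumor, while for Fdps IL-33 replicate 3 lay above every vehicle tumor on CPM but not on TMM-scaled CPM. Idi1 missed the unadjusted threshold without vehicle replicate 3 (log2 fold change −0.92) and Fdps without vehicle replicate 4 (−1.01). Of the 50-base stretches of their transcripts, 17.7% for Idi1 and 26.2% for Fdps occur in other annotated genes. Ggps1, which makes geranylgeranyl diphosphate for protein prenylation at a branch off the sterol route, had a log2 fold change of −0.01 (95% interval −0.31 to 0.29).

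Squalene and the sterol ring are made next. Fdft1, the squalene synthase, had a log2 fold change of −0.76 ± 0.31, although 18.3% of its exon bases overlap Ctsb, and without vehicle replicate 4 the value was −0.59 and missed the unadjusted threshold. Sqle, the epoxidase that commits squalene to sterols, was measured at 91.2 to 299.8 CPM in vehicle tumors and at 30.0 to 198 CPM in IL-33 tumors. Its lowest value belonged to IL-33 replicate 7, and edgeR gave a log2 fold change of −0.55 ± 0.35 with the 16 tumors and −0.40 without that one. Lss, which closes the ring to lanosterol, had a log2 fold change of −0.53 ± 0.32, with no IL-33 tumor below every vehicle tumor on either scale, and passed the unadjusted threshold when either vehicle replicate 4 (−0.66) or IL-33 replicate 1 (−0.68) was left out.

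The enzymes that trim lanosterol to cholesterol included the sterol enzyme with the smallest p. Tm7sf2, a sterol C14 reductase (ENSMUSG00000024799, chr19:6062821-6068373), was measured at 7.11 to 22.5 CPM in vehicle tumors (median 14.1) and at 2.16 to 12.9 CPM in IL-33 tumors (median 7.2). All 8 IL-33 tumors lay below the vehicle mean and replicates 4, 5, 6 and 8 below every vehicle tumor, joined by replicate 7 on TMM-scaled CPM. The means were 14.1 ± 4.65 CPM and 7.58 ± 3.88 CPM (SD, n = 8 each), the log2 fold change was −1.06 (95% interval −1.84 to −0.28, edgeR p = 0.0104, adjusted p = 0.418), and the exact permutation p was 0.00979. The gene is lightly expressed, with 37 to 372 counts per tumor, and 12.1% of its exon bases overlap Vps51. Tm7sf2, Elovl6 and Scd1 were the members whose call at the unadjusted threshold held in all 23 alternatives run, the fits that left out 1 tumor included. The exact permutation test was not among these alternatives, and its p was 0.0747 for Elovl6 and 0.121 for Scd1.

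Cyp51, the lanosterol demethylase, was the most highly expressed sterol synthesis enzyme per length (47.3 CPM per kb in the vehicle group and 25.2 CPM per kb in the IL-33 treatment group). It was measured at 101 to 381 CPM in vehicle tumors (median 220.1) and at 40.6 to 287 CPM in IL-33 tumors (median 58.6), with IL-33 replicates 4 to 8 below every vehicle tumor. With edgeR, the log2 fold change was −0.95 (95% interval −1.85 to −0.05, p = 0.0404, adjusted p = 0.426, exact permutation p = 0.0249), and −0.81 without IL-33 replicate 7, where the unadjusted edgeR p was above 0.05. Hsd17b7 and Sc5d, which act later, also missed the unadjusted threshold once that tumor was left out. Hsd17b7 had a log2 fold change of −0.83 with the 16 tumors (edgeR p = 0.0338, exact permutation p = 0.183) and −0.74 without it (edgeR p = 0.0567). Sc5d had −0.47 (edgeR p = 0.0327, exact permutation p = 0.118) and −0.40 without it (edgeR p = 0.0593). Among the fits that left out 1 tumor, 10 for Cyp51, 8 for Hsd17b7 and 7 for Sc5d missed the threshold, and their log2 fold changes ran from −1.31 to −0.78, from −0.98 to −0.62 and from −0.62 to −0.38.

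Nsdhl, a sterol dehydrogenase encoded on the X chromosome, had a log2 fold change of −0.80 ± 0.32 (edgeR p = 0.0222, exact permutation p = 0.0963). All 8 IL-33 tumors lay below the vehicle mean. On CPM none lay below every vehicle tumor, and on TMM-scaled CPM IL-33 replicates 4, 6, 7 and 8 did. Without vehicle replicate 3 the Nsdhl value was −0.60 and missed the unadjusted threshold. Msmo1, the C4 methyl oxidase, had a log2 fold change of −0.70 ± 0.36 and Ebp, the sterol isomerase, −0.48 ± 0.24, and neither passed the unadjusted threshold (edgeR p = 0.0677 and 0.0615, exact permutation p = 0.0842 and 0.0844). Without IL-33 replicate 3 both passed it, at −0.91 and −0.65, and so did Hmgcs1 at −0.70. Msmo1 also passed it without vehicle replicate 2 (−0.81) or IL-33 replicate 1 (−0.84), and Ebp without vehicle replicate 6 (−0.55). Dhcr7, the reductase of the last step, had a log2 fold change of −0.18 (95% interval −0.63 to 0.26).

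The IL-33 tumors were not alike in these enzymes. Relative to the vehicle mean, the median log2 difference over the 19 enzymes was 0.01, −0.36 and 0.21 in IL-33 replicates 1, 2 and 3, and −1.50, −0.87, −1.06, −1.13 and −1.51 in replicates 4 to 8. IL-33 replicates 4 and 8 each had 11 of the 19 enzymes below every vehicle tumor, replicate 6 had 10, replicate 5 had 9 and replicate 7 had 7, while replicates 1, 2 and 3 had 0. On TMM-scaled CPM these counts were 16 in replicate 4, 15 in replicate 8, 13 in replicate 6, 9 in replicate 5, 10 in replicate 7, 1 in replicate 3 (Dhcr7) and 0 in replicates 1 and 2. A vehicle tumor also had low values, since vehicle replicate 2 had a median of −0.93, with 18 of 19 enzymes under the vehicle median.

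The vehicle tumors differed among themselves in other ways. Vehicle replicate 3 was highest of the vehicle tumors for 14 of 19 enzymes on CPM and 11 on TMM-scaled CPM, and had a median log2 difference of 0.72. Vehicle replicate 4 was lowest for 10 enzymes and highest for 4 on CPM, and lowest for 5 and highest for 7 on TMM-scaled CPM. Its Hsd17b7 level of 2.55 CPM was the lowest of all 16 tumors for that gene, and its Mvk level of 49.7 CPM the highest for Mvk. The lower and upper quartiles of its log2 differences on TMM-scaled CPM were −0.58 and 1.03. The summed level of the 19 enzymes was 720 to 2150 CPM in vehicle tumors and 461 to 1530 CPM in IL-33 tumors. The tissue markers of the low tumors were unlike each other. The IL-33 tumors with the lowest sums, replicates 4 and 8, had 1520 and 1380 CPM of the 10 macrophage markers, 36.2 and 26.3 CPM of the 5 T cell markers, 236 and 292 CPM of epithelial markers and 1260 and 1110 CPM of proliferation markers, while replicate 6, with a sum of 579 CPM, had 591, 1.95, 1370 and 653 CPM of these lists. The part of tissue content in the sterol values was not tested.

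**Figure D3:**
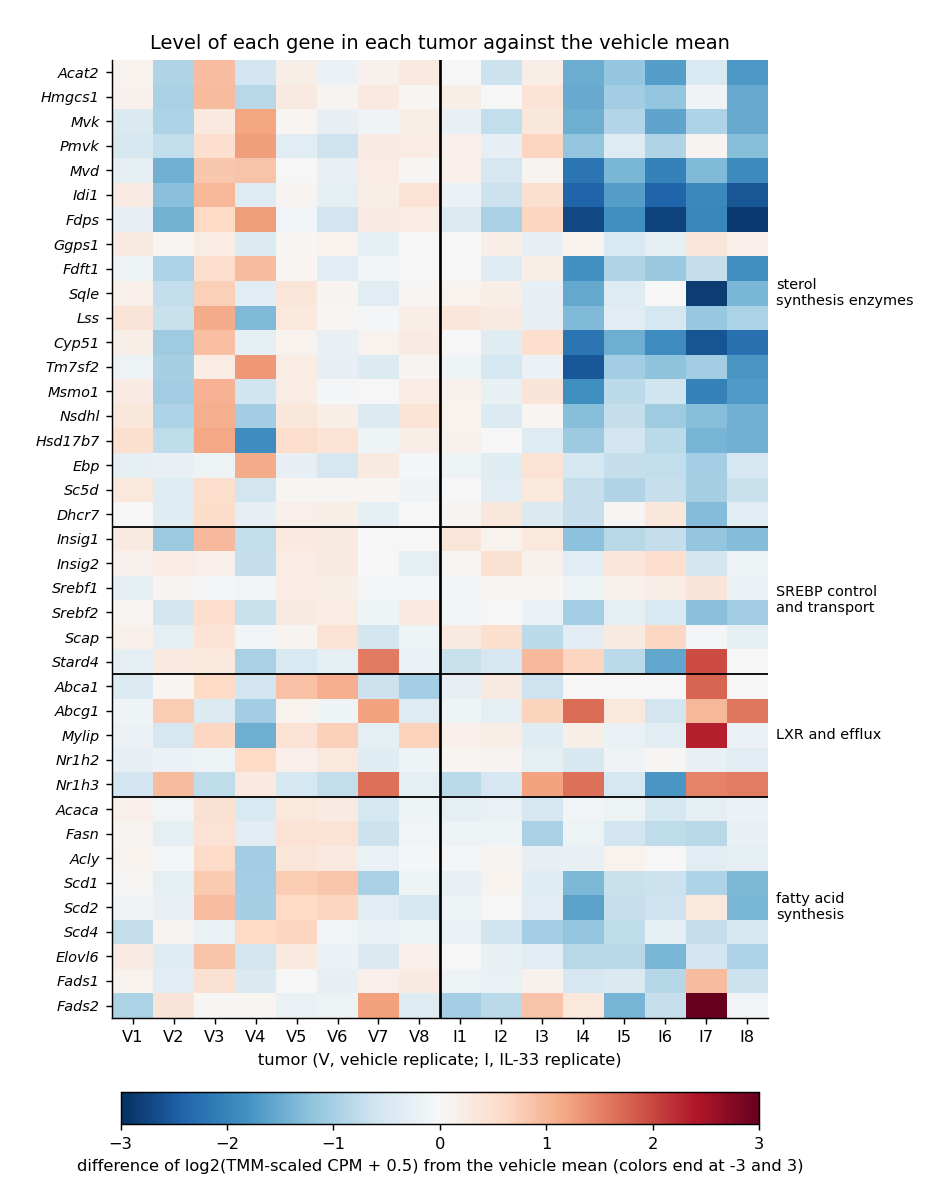
Log2(TMM-scaled CPM + 0.5) of each member (rows) in each tumor (columns; V, vehicle replicate; I, IL-33 replicate) as the difference from the vehicle mean, with colors that end at −3 and 3. Blue fills most sterol synthesis rows of I4 to I8 and of V2, and red marks I7 in Abca1, Mylip and Fads2.

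**Figure D4:**
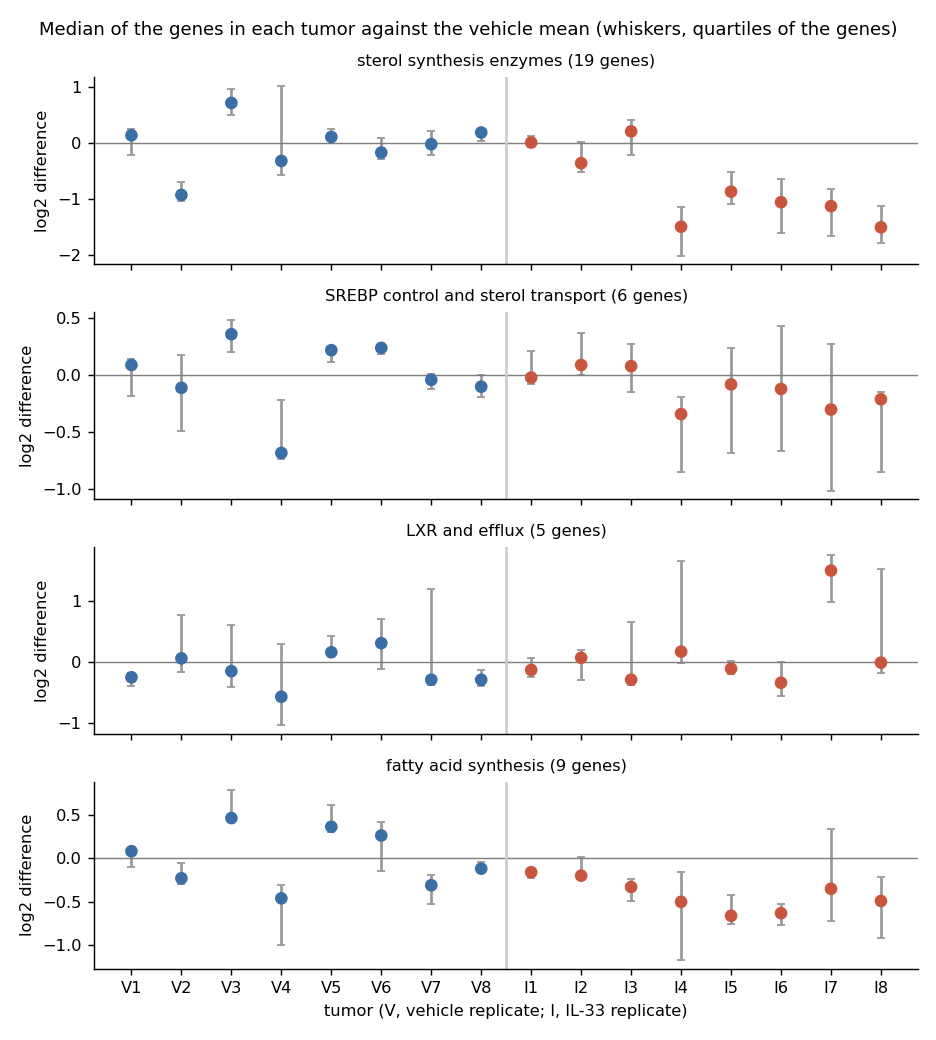
Median over the genes of each role (circle) with their quartiles (whisker), as the log2 difference from the vehicle mean, in each vehicle (V, blue) and IL-33 (I, red) tumor. The sterol synthesis medians of I4 to I8 lie between −1.51 and −0.87, those of I1 to I3 between −0.36 and 0.21.

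Of the 6 genes of SREBP control and sterol transport, 1 was lower at the unadjusted threshold, Srebf2, against 1.17% of all genes tested. In the other direction 0 were higher, against 9.99% of all genes. The median log2 fold change of the 6 was 0.0568, and −0.13 without IL-33 replicate 7. Srebf2 encodes SREBP2 itself and is a target of its own product (ENSMUSG00000022463, chr15:82147181-82205379). It was measured at 95.5 to 341 CPM in vehicle tumors (median 261.8) and at 122 to 228 CPM in IL-33 tumors (median 170.5). All 8 IL-33 tumors lay below the vehicle mean of 243 ± 77.9 CPM (SD, n = 8), at a mean of 172 ± 46.5 CPM, and on CPM none lay below vehicle replicate 4. On TMM-scaled CPM, where that tumor was again the lowest of its group, IL-33 replicates 4, 7 and 8 lay below it. With edgeR, the log2 fold change was −0.53 (95% interval −0.98 to −0.08, p = 0.0246, adjusted p = 0.418), and the exact permutation test, on CPM without TMM scaling, gave p = 0.0925. Without vehicle replicate 3 it was −0.45 and missed the unadjusted threshold.

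Insig1, the sterol-induced brake on SCAP and itself an SREBP target (ENSMUSG00000045294, chr5:28071363-28078662), was measured at 27.1 to 143 CPM in vehicle tumors (median 79.2) and at 30.4 to 92.5 CPM in IL-33 tumors (median 38.5). IL-33 replicates 4 to 8 lay between 30.4 and 38.8 CPM and replicates 1, 2 and 3 between 75.0 and 92.5 CPM, the same division as in the enzymes, and vehicle replicates 2 and 4 were low as well. On TMM-scaled CPM, IL-33 replicates 4, 7 and 8 lay below every vehicle tumor. In edgeR the log2 fold change was −0.52 (95% interval −1.19 to 0.14, edgeR p = 0.115, adjusted p = 0.578, exact permutation p = 0.219), and it was −0.68 and passed the unadjusted threshold without IL-33 replicate 1. Srebf1, which encodes SREBP1 (ENSMUSG00000020538, chr11:60199089-60222581), was measured at 52.9 to 102 CPM in vehicle tumors and at 83.5 to 141 CPM in IL-33 tumors, with the highest value in IL-33 replicate 7. The difference was 0.06 on the log2 scale (95% interval −0.16 to 0.28, edgeR p = 0.597, adjusted p = 0.907, exact permutation p = 0.371).

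Insig2, the other brake, had a log2 fold change of 0.07 ± 0.17, and Scap, the escort, 0.06 ± 0.20. Stard4, a carrier of sterols between membranes, was measured at 1.20 to 14.0 CPM in vehicle tumors and at 0.973 to 21.8 CPM in IL-33 tumors. With edgeR, the log2 fold change was 0.22 ± 0.52, which changed sign to −0.27 without IL-33 replicate 7.

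**Figure D5:**
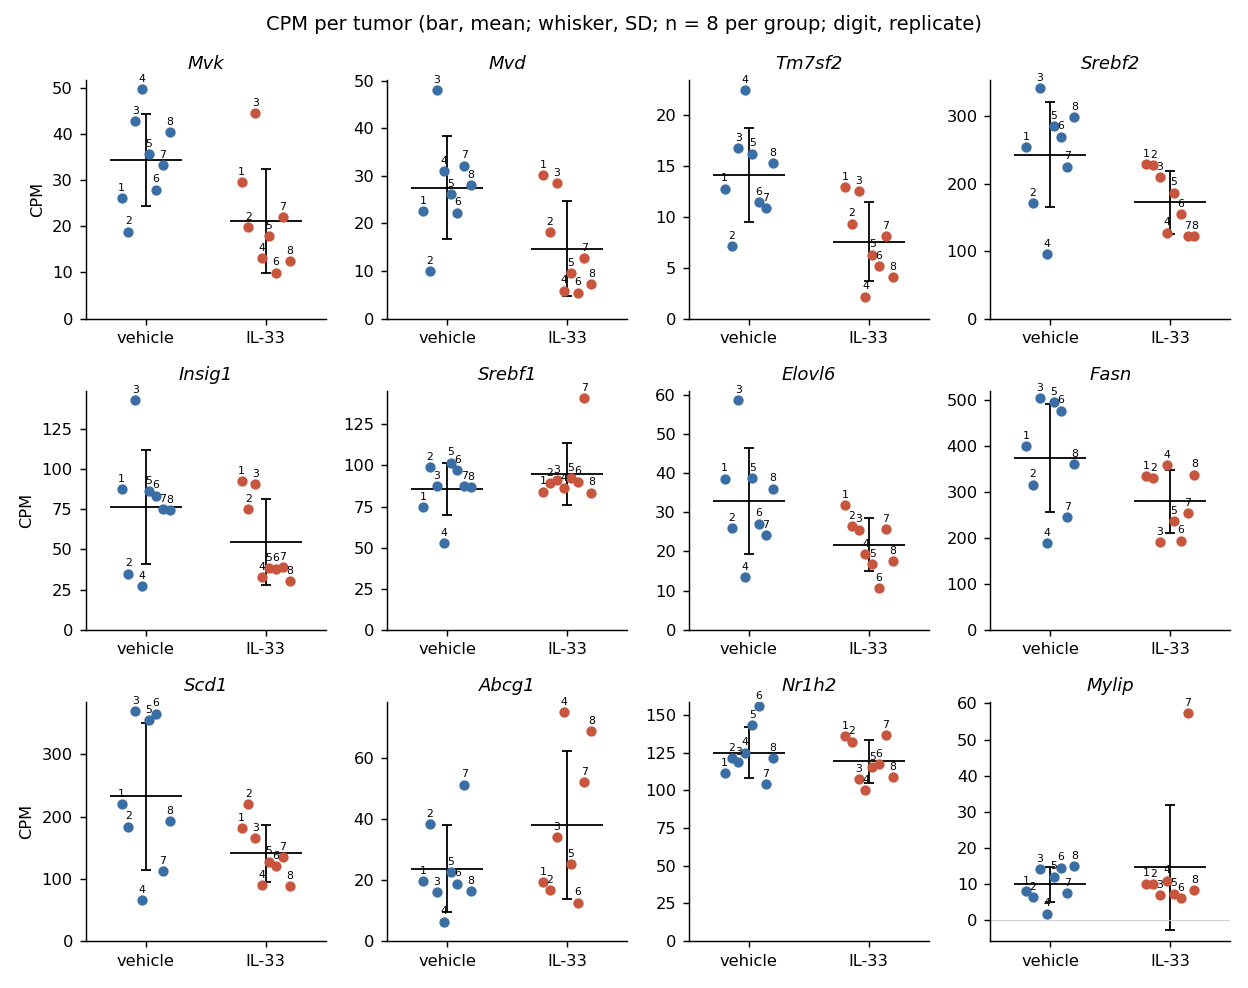
CPM of 12 members in each tumor (vehicle blue, IL-33 red, the digit is the replicate number), with the mean (bar) and SD (whisker) of 8 tumors per group. On this scale, without TMM scaling, IL-33 replicates 4, 5, 6 and 8 lie below every vehicle tumor for Mvk, Mvd and Tm7sf2, and the groups overlap in all 12 genes.

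The 5 genes of the LXR receptors and cholesterol efflux had 0 members past the unadjusted threshold in either direction. Of all genes tested, 1.17% were lower at that threshold and 9.99% higher. The median log2 fold change of the 5 genes was 0.41 with all tumors and −0.17 without IL-33 replicate 7. Abcg1, which loads cholesterol onto high-density lipoprotein (ENSMUSG00000024030, chr17:31057675-31117988), was measured at 6.37 to 51.3 CPM in vehicle tumors (median 19.3) and at 12.6 to 75.0 CPM in IL-33 tumors (median 29.7). The 3 values above every vehicle tumor belonged to IL-33 replicates 4, 7 and 8, and on TMM-scaled CPM only 4 and 8 lay above. With edgeR, the log2 fold change was 0.60 (95% interval −0.18 to 1.38, p = 0.125, adjusted p = 0.592, exact permutation p = 0.194), and 0.57 without IL-33 replicate 7. It is the member of the role with the smallest p, and its interval includes 0. Without vehicle replicate 7 it was 0.84 and passed the unadjusted threshold.

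Nr1h3, the LXRα receptor of macrophages and liver, was measured at 6.72 to 40.2 CPM in vehicle tumors (median 8.62) and at 2.81 to 42.3 CPM in IL-33 tumors (median 18.2). The highest values, between 37.5 and 42.3 CPM, belonged to vehicle replicate 7, the highest on TMM-scaled CPM, and to IL-33 replicates 4, 7 and 8, and its log2 fold change was 0.49 ± 0.52. Vehicle replicate 7 had the highest summed macrophage markers (2340 CPM), and IL-33 replicates 4, 7 and 8 had 1520, 1770 and 1380 CPM. IL-33 replicate 3 had 2140 CPM of these markers and 28.3 CPM of Nr1h3, and the part of macrophage content in these values was not tested. Nr1h2, the widely expressed LXRβ receptor (ENSMUSG00000060601, chr7:44549616-44553951), was measured at 104 to 156 CPM in vehicle tumors and at 99.9 to 137 CPM in IL-33 tumors, with a log2 fold change of −0.18 (95% interval −0.49 to 0.12, edgeR p = 0.226, adjusted p = 0.695, exact permutation p = 0.465).

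Abca1, which exports cholesterol to apolipoprotein A-I, and Mylip, which marks lipoprotein receptors for degradation and is a direct LXR target, were set by IL-33 replicate 7. Abca1 was measured at 208 CPM in that tumor and at 33.1 to 58.7 CPM in the other 7 IL-33 tumors, against 21.3 to 105 CPM in vehicle tumors. The fold was 0.14 on the log2 scale with the 16 tumors and −0.25 without that one. Mylip (ENSMUSG00000038175, chr13:45389742-45412022) was measured at 57.4 CPM there and at 6.16 to 11.0 CPM in the other 7, against 1.84 to 15.1 CPM in vehicle tumors. For Mylip edgeR gave a log2 fold change of 0.41 (95% interval −0.50 to 1.33, edgeR p = 0.355, adjusted p = 0.791, exact permutation p = 0.556), and −0.22 without that tumor.

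Of the 9 fatty acid genes, 5 were lower at the unadjusted threshold (Acaca, Fasn, Scd1, Scd4 and Elovl6), against 1.17% of all genes tested. In the other direction 1 was higher (Fads2), against 9.99% of all genes. Without IL-33 replicate 7, 6 were lower (Fasn, Scd1, Scd2, Scd4, Elovl6 and Fads1) and 0 higher, against 2.29% and 1.83% of all genes. The median log2 fold change was −0.49 with all tumors and −0.44 without that tumor. These genes carry carbon from citrate to palmitate and on to longer and unsaturated chains.

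Acly, which cleaves citrate to cytosolic acetyl-CoA, had a log2 fold change of −0.17 (95% interval −0.54 to 0.20), and its IL-33 tumors lay close together at 170 to 203 CPM. Without vehicle replicate 4 the Acly value was −0.28 and passed the unadjusted threshold in edgeR, and without vehicle replicate 3 it was −0.076. Acaca, the acetyl-CoA carboxylase that makes malonyl-CoA, was measured at 45.5 to 139 CPM in vehicle tumors and at 61.0 to 102 CPM in IL-33 tumors. On CPM no IL-33 tumor lay below every vehicle tumor, and on TMM-scaled CPM IL-33 replicate 6 did. The fold was −0.30 on the log2 scale (edgeR p = 0.0488, exact permutation p = 0.402), and the same value without IL-33 replicate 7 had an edgeR p of 0.0677. In 12 of the 16 fits that left out 1 tumor the unadjusted p was above 0.05, and 30.4% of the 50-base stretches of its transcripts occur in other annotated genes.

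Fasn, the synthase that assembles palmitate (ENSMUSG00000025153, chr11:120805846-120824547), was measured at 189 to 503 CPM in vehicle tumors (median 379.3) and at 191 to 358 CPM in IL-33 tumors (median 291.8). All 8 IL-33 tumors lay below the vehicle mean of 373 ± 118 CPM, at a mean of 279 ± 68.5 CPM (SD, n = 8 each). On CPM none lay below vehicle replicate 4, and on TMM-scaled CPM IL-33 replicates 3, 6 and 7 lay below every vehicle tumor. In edgeR the log2 fold change was −0.49 (95% interval −0.89 to −0.09, edgeR p = 0.0184, adjusted p = 0.418), and the exact permutation p was 0.109. The exact test works on CPM without TMM scaling, where vehicle replicate 4 was the lowest vehicle tumor for Fasn.

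Elovl6, the elongase of palmitate (ENSMUSG00000041220, chr3:129532355-129638495), had the smallest unadjusted p of the 39 members. It was measured at 13.5 to 58.5 CPM in vehicle tumors (median 31.5) and at 10.6 to 31.9 CPM in IL-33 tumors (median 22.4), and all 8 IL-33 tumors lay below the vehicle mean. On CPM only IL-33 replicate 6 lay below every vehicle tumor, and on TMM-scaled CPM IL-33 replicates 4 to 8 did. The means were 32.8 ± 13.5 CPM and 21.7 ± 6.85 CPM (SD, n = 8 each), and the log2 fold change was −0.66 (95% interval −1.14 to −0.18, edgeR p = 0.00979, adjusted p = 0.418, exact permutation p = 0.0747). Without IL-33 replicate 7 it was again −0.66.

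The stearoyl-CoA desaturases place the first double bond. Scd1 (ENSMUSG00000037071, chr19:44394455-44407879) was measured at 65.6 to 369 CPM in vehicle tumors (median 205.9) and at 87.7 to 220 CPM in IL-33 tumors (median 131.2). On CPM no IL-33 tumor lay below every vehicle tumor, and on TMM-scaled CPM IL-33 replicates 4 and 8 did. Vehicle replicates 3, 5 and 6 lay between 355 and 369 CPM, above every IL-33 tumor, and the means were 233 ± 118 CPM and 141 ± 45.4 CPM (SD, n = 8 each). In edgeR the log2 fold change was −0.76 (95% interval −1.39 to −0.13, edgeR p = 0.0204, adjusted p = 0.418, exact permutation p = 0.121). Scd2, the most highly expressed member per length (73.1 CPM per kb in the vehicle group), had a log2 fold change of −0.56 with the 16 tumors (edgeR p = 0.0856, exact permutation p = 0.243) and −0.71 without IL-33 replicate 7 (edgeR p = 0.0309), a tumor in which it stood at 569.5 CPM. It also passed the unadjusted threshold without vehicle replicate 4 (−0.68). Scd4 had at most 18 counts in any tumor and its log2 fold change of −1.50 (exact permutation p = 0.00435) rests on those few reads, and 4 of the fits that left out 1 tumor missed the unadjusted threshold. Between 3.97% and 5.54% of the 50-base stretches of Scd1, Scd2 and Scd4 are shared with other genes, mainly of the same family.

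Fads1 and Fads2, the delta-5 and delta-6 desaturases of polyunsaturated fatty acids, turned on IL-33 replicate 7. Fads2 was measured at 106 CPM in that tumor, at 0.713 to 5.57 CPM in the other 7 IL-33 tumors and at 1.23 to 7.49 CPM in vehicle tumors. With edgeR, the log2 fold change was 2.05 with the 16 tumors (p = 0.0382, adjusted p = 0.423, exact permutation p = 0.811) and −0.39 (edgeR p = 0.385) without it. DESeq2, which by default replaces counts it takes for outliers in groups of this size, gave −0.39. Fads1 was measured at 136 CPM in the same tumor and at 27.7 to 63.2 CPM in the other 7, and edgeR gave a log2 fold change of −0.13 with the 16 tumors (p = 0.57, exact permutation p = 0.708) and −0.37 without it (edgeR p = 0.0341). In all, 8 of the 39 members had their highest value of the 16 tumors in IL-33 replicate 7 on CPM, and 7 on TMM-scaled CPM, where Nr1h3 was the exception. The part of the ovary, oviduct, adipose and liver markers of that tumor in these values was not tested.

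Of the pairs with Hmgcs1, that with Insig1 varied together most closely from tumor to tumor. Across the 16 tumors, Hmgcs1 and Insig1 had a Pearson r of 0.90 and a Spearman rho of 0.87 on log2(TMM-scaled CPM + 0.5) (permutation test, p = 3e-05 and 4e-05, adjusted over 10 pairs 0.00025 and 0.0004). Without the 2 tumors farthest from the median of Hmgcs1, r was 0.85. It was 0.97 within the vehicle tumors and 0.81 within the IL-33 tumors (adjusted exact permutation p = 0.0108 and 0.156). Hmgcs1 and Sqle had r = 0.48 and rho = 0.65 (permutation test, adjusted p = 0.129 and 0.0188), with r = 0.80 without IL-33 replicate 7 and 0.27 without the 2 farthest tumors. The 2 farthest tumors were IL-33 replicates 4 and 8, and without them the adjusted p of r was 0.613 and that of rho 0.138. Within the 8 vehicle tumors, which hold neither, r was 0.86 (adjusted exact permutation p = 0.0321), and within the IL-33 tumors it was 0.23. Both genes of a pair come from the same libraries and so share the scaling of each tumor.

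Between the sterol and fatty acid routes, only the pair Hmgcs1 and Fasn was measured. Over all tumors its r was below that of Hmgcs1 and Sqle (0.48). Without the 2 farthest tumors the order turned, with 0.42 for Hmgcs1 and Fasn and 0.27 for Hmgcs1 and Sqle. The differences of coefficients were not tested. Hmgcs1 and Fasn had r = 0.30 and rho = 0.30 (permutation test, adjusted p = 0.497 and 0.523), with r = 0.42 without the 2 farthest tumors, 0.52 within vehicle and −0.27 within IL-33 tumors. Within the fatty acid route, Scd1 and Scd2 had r = 0.85 and rho = 0.82 (permutation test, adjusted p = 0.00025 and 0.0006), with r = 0.77 without the 2 farthest tumors. Their r was 0.92 within vehicle and 0.71 within IL-33 tumors (adjusted exact permutation p = 0.0108 and 0.168). Fasn and Acly had r = 0.55 and rho = 0.71 (permutation test, adjusted p = 0.0771 and 0.00913), with r = 0.52 without the 2 farthest tumors, 0.71 within vehicle and 0.24 within IL-33 tumors.

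Against efflux and tissue markers the coefficients were small. Hmgcs1 and Abca1 had r = 0.11 and rho = −0.0912 (permutation test, adjusted p = 0.866 and 0.919), with r = 0.11 without the 2 farthest tumors, 0.30 within vehicle and 0.0599 within IL-33 tumors. Abca1 and Abcg1 had r = 0.11 and rho = 0.0588 (permutation test, adjusted p = 0.866 and 0.924), with r = 0.0105 without the 2 farthest tumors. Abca1 and Csf1r, a macrophage receptor, had r = 0.0225 and rho = −0.10 (permutation test, adjusted p = 0.935 and 0.919). With Adipoq, the adipocyte hormone, Scd1 had r = 0.0673 and rho = −0.00736 (permutation test, adjusted p = 0.894 and 0.981) and Fasn r = −0.20 and rho = −0.21 (permutation test, adjusted p = 0.768 and 0.705). Within the IL-33 tumors the r of Fasn and Adipoq was −0.83, with an adjusted exact permutation p of 0.062. Within the vehicle tumors it was 0.60 (adjusted exact permutation p = 0.226). The r of Scd1 and Adipoq was 0.48 within vehicle and −0.24 within IL-33 tumors (adjusted exact permutation p = 0.297 and 0.775).

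Of 43 further genes of these pathways, 41 reached 10 counts, Elovl3 and Scd3 being the exceptions. At the unadjusted threshold 3 were lower (Tecr, Acsl3 and Rdh11), against 1.17% of all genes tested, and 1 was higher (Dgat2), against 9.99%, and the smallest adjusted p was 0.418 (edgeR). Their median log2 fold change was −0.044, and −0.10 without IL-33 replicate 7. Tecr, the reductase that completes each elongation cycle, had a log2 fold change of −0.48 ± 0.21, and Acsl3, an acyl-CoA synthetase of lipid droplets, −0.46 ± 0.20. Rdh11, a retinal reductase, had −0.33 ± 0.14. Dgat2, which makes triglyceride, had 1.19 ± 0.50 with 90.5 CPM in IL-33 replicate 7, and 0.19 without that tumor. Without IL-33 replicate 7, 6 of the 41 were lower (Slc25a1, Thrsp, Tecr, Hacd3, Rdh11 and Lpcat3) and 0 higher, against 2.29% and 1.83% of all genes.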

How the data were processed

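Poly(A) RNA of 16 peritoneal MFC tumors (8 vehicle, 8 IL-33) was sequenced by a company. The authors deposited, for each tumor, raw counts of reads per Ensembl gene, without normalization. Per the labels, the submitters' processing notes name HISAT2, featureCounts and the build mm10, and tool versions, annotation release and use of strand are not given in the sources used here. Without strand, reads of overlapping genes cannot be told apart.

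Gene symbols were matched for 22255 of 22298 identifiers, and exon lengths came from GENCODE M21. Groups came from the labels. Genes with at least 10 counts over 16 tumors were tested with edgeR 4.0.16 (TMM, quasi-likelihood test, R 4.3.3) and adjusted by Benjamini-Hochberg over 16817 genes, with no covariate. All 39 members were described. Full statistics were given for the 3 members of smallest unadjusted p in each role, and members whose call at 0.05 or direction turned without IL-33 replicate 7 were also named. The members and lists were chosen with earlier results of these data known. Exact permutation tests used all 12870 assignments of log2(CPM + 0.5), two-sided, where the smallest possible p was 0.0002, and the order of tumors was read on CPM and on TMM-scaled CPM. Correlations used 100000 permutations, or all within a group. DESeq2 1.42.0, limma 3.58.1 (voom), upper-quartile scaling, other filters, a replicate block and left-out tumors were alternatives. Scripts were tested on simulated data. Totals were 14139268 to 24290794 counts per tumor. Counting error bears most on Scd4 (0 to 18 counts per tumor), and every other member had at least 13 counts in each tumor. No pair of libraries had counts within sampling noise (smallest chi-square per degree of freedom 8.79 over 120 pairs). Shared 50-base stretches were counted over GENCODE M21 transcripts.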

Additional observations from a re-analysis of the deposited data

Results flagged for a closer look

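Among 78 sets of 8 values (39 members in 2 groups), 11 had a tumor whose gap to its neighbor exceeded Dixon's 95% limit for 8 values, which chance passes in about 1 in 20 groups. IL-33 replicate 7 was the tumor in 6 of them, with CPM of 141 for Srebf1, 21.8 for Stard4, 208 for Abca1, 57.4 for Mylip, 136 for Fads1 and 106 for Fads2. The other IL-33 tumors reached at most 92.5, 8.80, 58.7, 11.0, 63.2 and 5.57 CPM for these genes. This is the tumor with the high ovary, oviduct, adipose and liver markers, and the part of that tissue in the 6 values was not tested. IL-33 replicate 3 stood above its group for Fdps (220 CPM, the others at most 104) and Ebp (86.4 CPM, the others at most 57.2). Among vehicle tumors, replicate 7 stood above its group for Stard4 (14.0 CPM, the others at most 5.58) and Fads2 (7.49 CPM, the others at most 3.98), and replicate 4 stood below it for Insig2 (19.2 CPM, the others at least 42.6).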

How the results depend on the processing

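The count of members with an adjusted p under 0.05 was 0 in every alternative. The count of members lower at the unadjusted threshold, 17, was 18 with DESeq2, 17 with upper-quartile scaling, 16 without a filter, 15 with edgeR's expression filter (which dropped Scd4), 25 with voom and 14 without vehicle replicate 4 and IL-33 replicate 7 together, and it ranged from 9 (without vehicle replicate 3) to 19 when 1 tumor was left out. The count of higher members, 1, was 0 with DESeq2, voom and the replicate block and 0 without those 2 tumors together, and ranged from 0 to 2 when 1 tumor was left out. The sterol enzyme median stayed between −0.91 and −0.60 and the fatty acid median between −0.57 and −0.40 when 1 tumor was left out. The SREBP median ranged from −0.13 to 0.0999 and was −0.17 with voom and −0.20 without the 2 tumors, and the LXR median ranged from −0.17 to 0.49 and was −0.11 with voom and −0.0664 without the 2 tumors. The causes of these moves were not tested.

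With the replicate number as a block, 18 members were lower and 0 higher at the unadjusted threshold, and the sterol enzyme median was −0.77. Under the block Acaca (−0.27), Fasn (−0.47), Scd4 (−1.61) and Fads2 (0.11) missed the unadjusted threshold, and Hmgcs1, Sqle, Msmo1 and Scd2 passed it. Same-numbered tumors had correlations of their deviations from −0.331 to 0.374, and not every tumor correlated best with its own number, so the numbers were not taken to pair tumors.

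Directions turned for genes with small values or a single high tumor. Ggps1 was 0.0037 with upper-quartile scaling and 0.0034 with the expression filter, and −0.073 to 0.039 when 1 tumor was left out, and −0.12 without vehicle replicate 4 and IL-33 replicate 7. When 1 tumor was left out Srebf1 ranged from 0.0083 to 0.096, Insig2 from −0.013 to 0.14, Scap from −0.04 to 0.15, Stard4 from −0.27 to 0.64, Abca1 from −0.25 to 0.34, Mylip from −0.22 to 0.52 and Fads2 from −0.39 to 2.36. With voom, Srebf1 was −0.05, Stard4 −0.29, Abca1 −0.30, Mylip −0.29 and Fads2 −0.45. Without the 2 tumors together, Srebf1 was −0.0028, Stard4 −0.39, Abca1 −0.33, Mylip −0.36 and Fads2 −0.40. Stard4 was −0.033 with the replicate block, and Fads2 was −0.39 with DESeq2. The r of Hmgcs1 and Fasn was −0.27 within IL-33 tumors. That of Fasn and Adipoq was 0.32 without the 2 farthest tumors, 0.0452 without IL-33 replicate 7 and 0.60 within vehicle tumors. That of Scd1 and Adipoq was −0.0794 without the 2 farthest and −0.24 within IL-33 tumors. That of Abca1 and Abcg1 was −0.0544 without IL-33 replicate 7, and that of Abca1 and Csf1r was −0.17 without the 2 farthest, −0.28 without IL-33 replicate 7 and −0.31 within vehicle tumors.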
